A study of Homo sapiens with 6 samples.

Results

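Expression was followed for 10 Wnt ligand and receptor genes, of 27914 genes in the deposited table: the ligands WNT5A, WNT5B, WNT7A, WNT7B and WNT10A, the receptor tyrosine kinases ROR1, ROR2 and RYK, and the Frizzled receptors FZD2 and FZD6. They were taken by name, and all 10 were found. The names were chosen by their TPM in this same contrast, controls against α-/-;βin cells, which was already known, so the members' values are given as a description, and nothing is read from how the members fared in the fit over all genes. The cells were MCF10A, a breast epithelial cell line that is immortal and not tumorigenic. The control group (SCRin, wild-type genotype) and the compared group (genotype α-/-;βin) each had 3 RNA-seq libraries, and the cells of both groups, controls included, had been given doxycycline for 3 days. From the series title, which names PI5P4K, α and β were read as the lipid kinases encoded by PIP4K2A and PIP4K2B. The labels do not say whether the α-/- cells were 1 clone or whether replicates came from separate cultures, so the spread between libraries may be technical.

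Wnt proteins are secreted, lipid-modified ligands that bind Frizzled receptors on the cell surface. With the co-receptors LRP5 and LRP6 they stabilise β-catenin, which then drives transcription with TCF and LEF factors. WNT5A is the best-known ligand of the β-catenin-independent branches, which act through ROR and RYK receptors on planar cell polarity, small GTPases and calcium. In the mammary gland WNT5A is known as a restraint on ductal growth downstream of TGF-β.

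The targeted genes were lower in every α-/-;βin library than in every control. PIP4K2A measured 19.8, 20.2 and 21.7 TPM in controls and 4.09, 4.16 and 4.35 TPM in α-/-;βin cells. PIP4K2B measured 20.8, 23.1 and 21.4 TPM in controls and 8.20, 8.69 and 11.6 TPM in α-/-;βin cells. TPM is transcript abundance per length, scaled to the same total in each library, so the read depth behind a value is unknown. Of 10 basal epithelial markers that fit MCF10A, all 10 averaged at least 1 TPM, with summed levels of 1528 to 2645 TPM in controls and 2290 to 2908 TPM in α-/-;βin cells. Among them EGFR, on chromosome 7, had a lower mean in α-/-;βin cells (206 and 96.0 TPM). The other basal markers had higher means there. Of 7 luminal epithelial markers, 4 averaged at least 1 TPM. The 7 summed to 632 to 728 TPM in controls and 567 to 680 TPM in α-/-;βin cells, most of it from the keratins KRT18 and KRT8. GATA3 and FOXA1 averaged 6.14 and 3.10 TPM in controls. The hormone receptors ESR1 and PGR and the keratin KRT19 averaged below 1 TPM in both groups (0.0837, 0.0382 and 0.673 TPM in controls). Of the markers of cells other than epithelium, the immune gene PTPRC and the fibroblast genes THY1 and COL3A1 were listed at 0 in every library. Summed fibroblast markers ranged from 1.96 to 6.32 TPM in controls and from 2.73 to 6.13 TPM in α-/-;βin cells, and summed endothelial markers stayed at or below 1.81 TPM. Summed immune markers ranged from 2.64 to 6.38 TPM and from 7.05 to 9.48 TPM, nearly all of it from CD14. The part of these markers in the results was not tested.

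The start sites of WNT5A are shown because, of the 6 members that entered the fit, it had the largest difference on the log2(TPM + 1) scale. On the TPM scale FZD6 and RYK, which are more abundant, differed by more. RefSeq (GRCh38.p14) gives 2 start sites, 5908 bases apart on the minus strand, and TPM per gene does not tell which of them was used. The 250 bases before each start follow, with CG pairs in capitals.
WNT5A, first start, chr3:55487307-55487556, minus strand: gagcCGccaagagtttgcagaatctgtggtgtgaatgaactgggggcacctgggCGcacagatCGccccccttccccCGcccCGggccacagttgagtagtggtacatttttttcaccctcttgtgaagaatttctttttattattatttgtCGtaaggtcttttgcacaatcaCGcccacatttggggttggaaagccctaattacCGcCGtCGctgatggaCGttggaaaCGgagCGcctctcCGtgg
WNT5A, downstream start, chr3:55481399-55481648, minus strand: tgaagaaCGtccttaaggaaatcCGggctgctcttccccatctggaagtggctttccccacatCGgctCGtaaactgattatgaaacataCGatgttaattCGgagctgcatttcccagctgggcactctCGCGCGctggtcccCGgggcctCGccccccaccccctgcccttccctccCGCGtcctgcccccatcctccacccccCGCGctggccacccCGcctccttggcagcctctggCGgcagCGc

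The upstream sequence of the first start holds 14 CG pairs at 52.8% GC, and that of the downstream start holds 18 at 64.4%. The median over the same 250 bases of all 35116 promoter windows in the table is 11 CG pairs and 58.0% GC. Windows from 250 bases before to 50 after the start were found for 7 members (9 windows, with WNT5A, WNT5B, WNT7A, WNT10A, ROR1, ROR2 and RYK). None of these 9 windows held GGAATG (the core bound by TEAD factors), CTTTGA (bound by TCF and LEF) or TGANTCA (bound by AP-1), searched on both strands. These letters occur in 14%, 12.9% and 7.71% of all windows.

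WNT5A was the most abundant Wnt ligand of the control cells and stood at 25.4% of its control level in α-/-;βin cells. Control replicates 1 to 3 gave 8.70, 10.2 and 12.04 TPM, and α-/-;βin replicates 1 to 3 gave 2.21, 3.00 and 2.66 TPM. The groups did not overlap, and the highest α-/-;βin library lay far below the lowest control. The means were 10.3 ± 1.67 and 2.62 ± 0.396 TPM (SD, n = 3), a difference of -1.64 on the log2(TPM + 1) scale (SE 0.17, 95% interval -2.03 to -1.24). That scale understates changes of low genes, and with a pseudocount of 0.1 in place of 1 the difference was -1.93. The cells were measured in bulk, so fewer cells that express a gene and less RNA per cell cannot be told apart.

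WNT5B, the closest relative of WNT5A, was barely detected. It was listed at 0.417, 0 and 0.269 TPM in controls and at 0 in the 3 α-/-;βin libraries. In this table an exact 0 may be a failed estimate, so no fold is given. Its highest library lay far below the lowest WNT5A value of either group.

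WNT7A, a ligand of epithelia that mostly acts through β-catenin, varied more between replicate numbers than between groups. Control replicates 1 to 3 gave 5.90, 0.503 and 5.999 TPM, and α-/-;βin replicates 1 to 3 gave 3.70, 0.668 and 5.01 TPM. Replicate 2 was low in both groups and the other libraries were several times higher, so the groups overlapped. Relative to the mean of replicates 1 and 3, replicate 2 was lower by 2.21 in controls and by 1.67 in α-/-;βin cells on the log2(TPM + 1) scale. This pattern was shared by few genes: of 12096 tested genes, 80 were lower in replicate 2 by at least 1 in both groups, and 59 were higher. The basal keratin KRT17, from the marker list, was likewise lowest in replicate 2, at 139 and 199 TPM against 420 to 693 TPM in the other libraries. The group difference of WNT7A was -0.21 with an interval of -1.91 to 1.49, too wide to give a direction.

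WNT7B, the relative of WNT7A, stood near 1 TPM. It measured 0.828, 0.937 and 1.04 TPM in controls and 0.848, 0.430 and 0.996 TPM in α-/-;βin cells, and the groups overlapped. WNT10A, a ligand of skin appendages and teeth, was listed at 0.131 TPM in control replicate 2 and 0.0654 TPM in α-/-;βin replicate 2, and at 0 in the other 4 libraries. WNT7B and WNT10A, with WNT5B and ROR2, averaged below the 1 TPM needed to enter the fit.

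**Figure D1:**
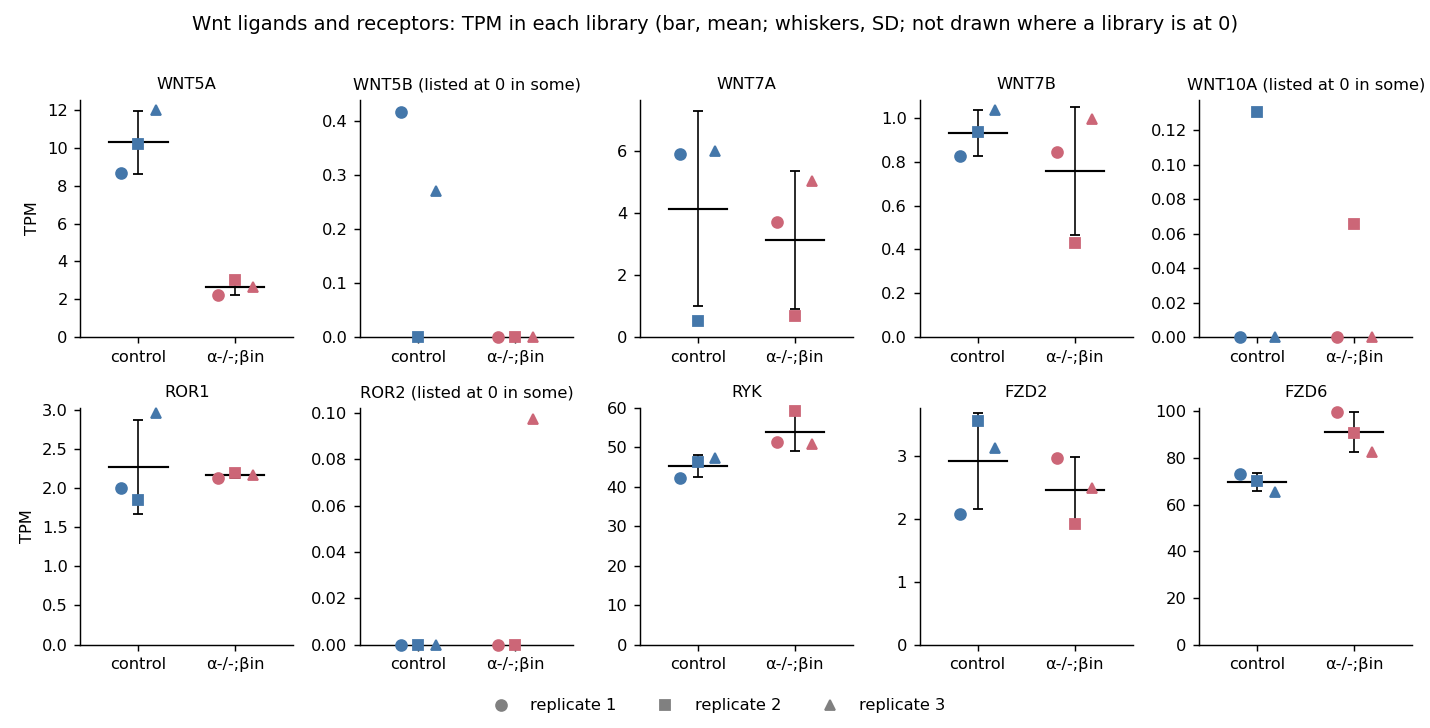
TPM of each of the 10 genes in the 3 control (blue) and 3 α-/-;βin (red) libraries, with a separate vertical axis from 0 for each gene; the symbol gives the replicate number, bars are means and whiskers SD, left out for genes with a library at 0. WNT5A, RYK and FZD6 are the tested genes whose groups do not overlap, and WNT7A is low in replicate 2 of both groups.

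Among the receptor tyrosine kinases RYK was by far the most abundant. RYK, a catalytically inactive kinase that binds Wnt proteins through its WIF domain, measured 42.2, 46.3 and 47.3 TPM in controls and 51.3, 59.2 and 50.98 TPM in α-/-;βin cells. Every α-/-;βin library lay above every control, by a small margin. The means were 45.3 ± 2.71 and 53.8 ± 4.64 TPM, a difference of 0.24 on the log2(TPM + 1) scale (SE 0.10, interval 0.01 to 0.48).

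The ROR receptors, which carry the WNT5A signal in many developing tissues, were low or undetected. ROR1 measured 2.00, 1.84 and 2.96 TPM in controls and 2.13, 2.20 and 2.17 TPM in α-/-;βin cells, a difference of -0.03 (interval -0.51 to 0.44). All 3 α-/-;βin values lay inside the control range. ROR2 was listed at 0 in 5 libraries and at 0.0973 TPM in α-/-;βin replicate 3.

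FZD6, a Frizzled known from hair and nail orientation and from β-catenin-independent signalling, was the most abundant of the 10 genes. It measured 73.1, 70.1 and 65.5 TPM in controls and 99.7, 90.8 and 82.7 TPM in α-/-;βin cells. The groups did not overlap, and the α-/-;βin mean was 131% of control (69.5 ± 3.80 and 91.1 ± 8.52 TPM). The difference was 0.38 on the log2(TPM + 1) scale (SE 0.10, interval 0.15 to 0.62). FZD2, a receptor that WNT5A can use, measured 2.08, 3.56 and 3.13 TPM in controls and 2.97, 1.93 and 2.49 TPM in α-/-;βin cells. Its groups overlapped, with a difference of -0.17 (interval -0.70 to 0.36).

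Of the 10 genes, 6 averaged at least 1 TPM and entered a limma fit over 12096 genes, in which an adjusted p under 0.05 counted as a call. Of these 6, WNT5A was called, as lower, against 2.19% of all tested genes called in either direction and 1.83% lower. The groups did not overlap for 3 of the 6, against 17.1% of all tested genes (11.4% with the α-/-;βin group lower, as WNT5A, and 5.64% with it higher, as RYK and FZD6). As the members were proposed from this contrast, nothing is read from these counts. The median difference of the 6 was -0.10, and that of all tested genes -0.015 (quartiles -0.16 and 0.11).

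The order of levels among the 10 genes changed at WNT5A. In controls FZD6 ranked first, then RYK, WNT5A, WNT7A, FZD2, ROR1, WNT7B, WNT5B, WNT10A and ROR2. From FZD6 down to WNT7A the ranges of successive genes did not overlap, while WNT7A overlapped with FZD2 and FZD2 with ROR1. In α-/-;βin cells FZD6 and RYK kept the top places, and WNT7A, WNT5A, FZD2 and ROR1 followed, each overlapping with the next. WNT7B stood apart below ROR1 in both groups, and WNT5B, WNT10A and ROR2 could not be ordered.

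Summed over all 19 Wnt ligand genes, transcripts reached 27.0, 22.1 and 32.9 TPM in controls and 17.8, 10.9 and 16.8 TPM in α-/-;βin cells. The WNT5A share of this sum was 32.3%, 46.2% and 36.6% in controls and 12.4%, 27.6% and 15.8% in α-/-;βin cells. Every α-/-;βin share lay below every control share, and replicate 2, where WNT7A was low, had the highest share in each group. Without WNT5A the sums were 18.3, 11.9 and 20.9 TPM in controls and 15.6, 7.87 and 14.2 TPM in α-/-;βin cells, and the groups overlapped. Of the 19 ligand genes, 9 were listed at 0 in every library.

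**Figure D2:**
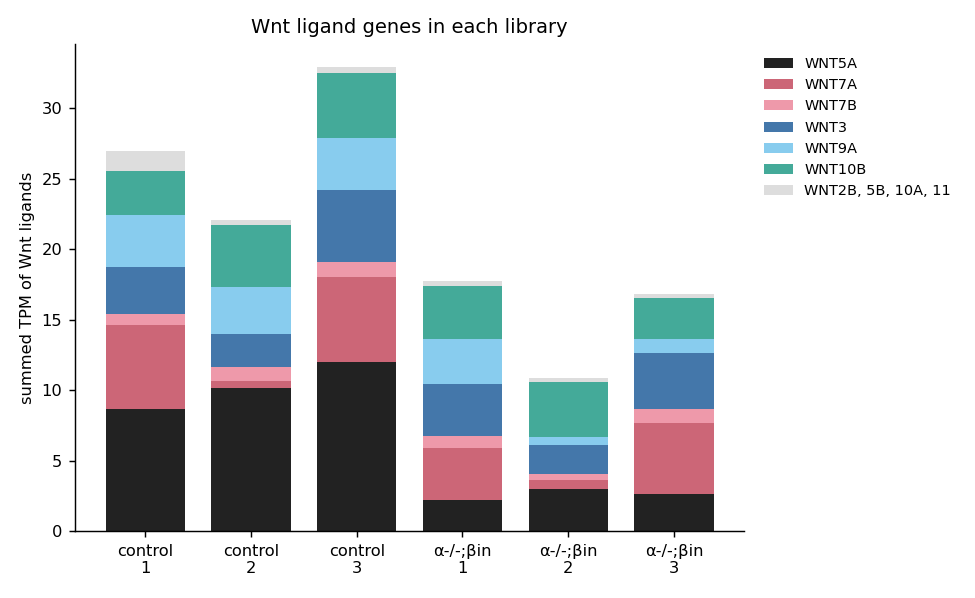
Summed TPM of the Wnt ligand genes in each of the 6 libraries, from 0, with 1 colour per gene. The WNT5A segment at the bottom is 8.70 to 12.04 TPM high in controls and 2.21 to 3.00 TPM in α-/-;βin cells, and the WNT7A segment is thin in both replicates 2.

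On the receptor side FZD6 made up most of the Frizzled transcripts. It held 75.2%, 73.2% and 71.9% of the summed TPM of all 10 Frizzled genes in controls and 79.9%, 78.4% and 77.1% in α-/-;βin cells. FZD8 came next, with 9.44% to 12.2% in controls and 8.88% to 9.95% in α-/-;βin cells. FZD2 held 2.14% to 3.72% and 1.66% to 2.38%. The summed Frizzled level was 97.1, 95.6 and 91.1 TPM in controls and 125, 116 and 107 TPM in α-/-;βin cells, without overlap. Most of this sum is FZD6, which was chosen from this contrast, so it does not show a change of the family. The 5 tested Frizzleds that are not members had a median difference of 0.06, and 0 of them were called.

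The members lie on 8 chromosomes, and WNT5A was the 1 member inside a stretch of chromosome 3 in which most genes were lower in α-/-;βin cells. That stretch, from SEMA3F to RPP14, and a similar one on chromosome 7, from FAM20C to CHCHD2, were known from an earlier account of these data. The exceptions among the 68 tested genes of the stretch were RPP14 itself (0.62) and ARF4-AS1, the 2 with a difference above 0. The 10 nearest tested genes of at least 5 TPM on each side of WNT5A run from SPCS1 to HTD2. All 20 of the nearest genes had a difference below 0, with a median of -0.77 (quartiles -0.98 and -0.73), and 11 of them were called lower. On the TPM scale their median was 55.8% of control, with a range of 31.5% for STIMATE, a regulator of calcium entry at the endoplasmic reticulum, to 80.7% for HTD2, an enzyme of mitochondrial fatty acid synthesis.

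WNT5A stood below all of its neighbours. None of the 20 neighbours and none of the 68 tested genes of the stretch had a more negative difference than WNT5A, or a lower percent of control. The stretch had a median of -0.81 (quartiles -0.96 and -0.71) with 36 genes called lower. Set against the median of its 20 neighbours in the same library, WNT5A differed by -0.12, -0.04 and 0.19 in control replicates 1 to 3 and by -0.91, -0.61 and -0.81 in α-/-;βin replicates 1 to 3. All 3 α-/-;βin libraries lay below all 3 controls in that measure too. It uses the same contrast as the choice of WNT5A and is given without a test.

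Single neighbours show the local level. On one side lie SELENOK, a selenoprotein of the endoplasmic reticulum (45.0 ± 4.93 and 27.4 ± 5.05 TPM), ACTR8, a subunit of the INO80 remodelling complex (18.5 ± 2.71 and 9.37 ± 1.23 TPM), and DCP1A, an mRNA decapping factor (11.3 ± 0.480 and 7.25 ± 0.883 TPM). On the other side lie CCDC66, a centrosome and cilium protein (7.41 ± 1.64 and 4.29 ± 0.914 TPM), FAM208A, a subunit of the HUSH silencing complex (56.4 ± 7.04 and 28.6 ± 2.77 TPM), and ARHGEF3, an exchange factor for RHOA (17.1 ± 3.69 and 9.64 ± 2.14 TPM). ACTR8 (difference -0.91, limma adjusted p = 0.0263) and FAM208A (-0.95, adjusted p = 0.0112) fell, and the other 4 did not pass. These 6 genes stood at 50.6% to 63.9% of control, against 25.4% for WNT5A.

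The other members lay outside both stretches. WNT7A and RYK are on chromosome 3 as well, and their 20 neighbours had medians of 0.07 and -0.14 with no call among them. RYK, with 0.24, lay above 19 of its 20 neighbours. FZD6, on chromosome 8, had neighbours with a median of 0.15 (quartiles 0.11 and 0.23), 17 of 20 of them at or above 0, and FZD6 itself lay above 19 of 20. Per library, the median of the FZD6 neighbours stood at 0.26, 0.19 and 0.12 in α-/-;βin replicates 1 to 3 relative to the control mean. For WNT5B, WNT7B, WNT10A, ROR1, ROR2 and FZD2 the neighbour medians lay between -0.04 and 0.07.

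**Figure D3:**
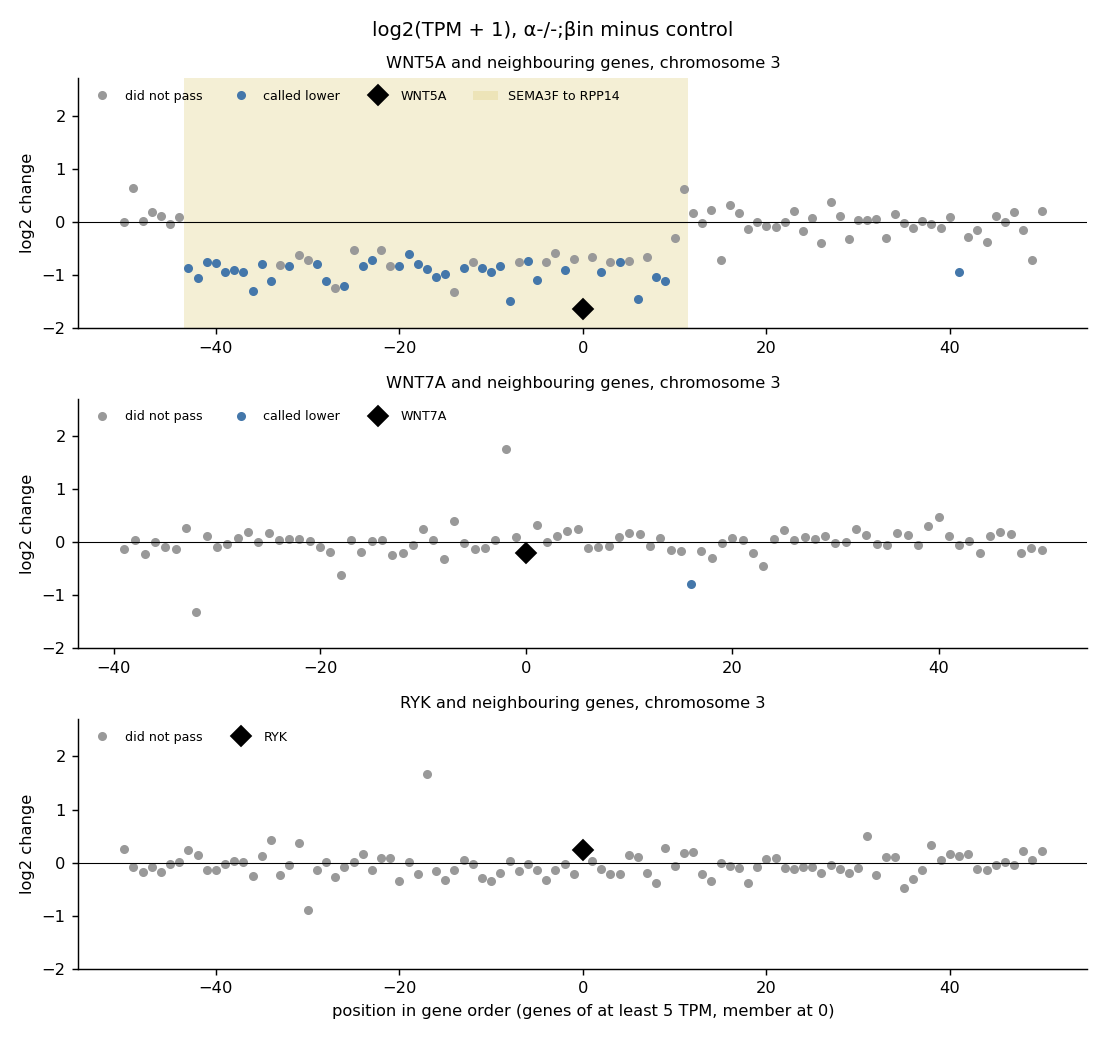
Difference on the log2(TPM + 1) scale, α-/-;βin minus control, for up to 50 genes on each side of WNT5A, WNT7A and RYK in the gene order of chromosome 3 (genes of at least 5 TPM; the diamond is the named member; shading marks the stretch from SEMA3F to RPP14). WNT5A, at -1.64, lies below every other gene of its stretch, and WNT7A and RYK lie among genes near 0.

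The named genes whose level followed WNT5A most closely over the 6 libraries lay on chromosomes 1, 7, 17 and X. Among 9719 other tested genes of at least 5 TPM, Pearson's r on the log2(TPM + 1) scale was highest for DAGLB, a diacylglycerol lipase of the chromosome 7 stretch (0.9993), then for PRKACB, a catalytic subunit of protein kinase A, and USP32, a deubiquitinase (0.9974 each), LAMC1, the laminin γ1 chain (0.9952), and CLIC2, a chloride intracellular channel protein (0.9946). The most negative were GALNT1, which starts O-glycosylation (-0.9978), LRIF1, a nuclear receptor-interacting factor (-0.9969), and FAT2, a giant protocadherin (-0.9962). With the group means removed, r for these 8 genes lay between 0.878 and 0.987 or between -0.933 and -0.889. They had been picked for their extreme r over the same libraries. With 6 libraries and so many genes such values are a description and carry no p. DAGLB measured 18.4 ± 2.11 and 7.84 ± 0.813 TPM, and FAT2 2.74 ± 0.398 and 8.70 ± 0.586 TPM.

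The other genes of the Wnt pathway came from 11 lists written from general knowledge, 170 genes with the members left out. The lists were chosen with earlier results of these data known, so their shares are given as a description. Of these, 111 were tested, 2 rose, 4 fell and 105 did not pass, which makes 5.41% called against 2.19% of all tested genes. At an unadjusted p under 0.05 there were 13, or 11.7%, against 11.9% of all tested genes. The groups did not overlap for 21 of the 111, or 18.9%, against 17.1% of all. The median difference was -0.003, and -0.015 over all tested genes. Of the 4 genes that fell, RAC1 lies in the chromosome 7 stretch and PRKCD in the chromosome 3 stretch.

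No other ligand passed. Of the 14 further ligand genes, 3 were tested. WNT10B measured 4.08 and WNT3 3.59 TPM on average in controls, and 3.54 and 3.24 TPM in α-/-;βin cells. WNT9A, picked with its values in view, stood at 3.69, 3.30 and 3.71 TPM in controls against 3.19, 0.510 and 0.984 TPM in α-/-;βin cells (difference -0.97, interval -1.86 to -0.09, limma adjusted p = 0.364). The groups did not overlap, but α-/-;βin replicate 1 lay close to the controls and the other two far below.

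Of the further receptors, 0 of 5 tested Frizzleds and 0 of 7 co-receptors passed. FZD8, next to FZD6 in level, measured 10.02 and 11.04 TPM. FZD1 measured 3.64 and 2.57 TPM with groups that did not overlap (difference -0.39, adjusted p = 0.485). PTK7, a pseudokinase of planar polarity, measured 28.9 and 34.1 TPM, and MCAM, a cell adhesion molecule reported to bind WNT5A, 31.98 and 30.2 TPM. Secretion genes also gave 0 calls of 8: SNX3, a sorting nexin that recycles the Wnt carrier WLS, measured 306 ± 17.6 and 243 ± 9.48 TPM (difference -0.33, adjusted p = 0.123), and TMED2, a cargo receptor of the early secretory pathway, 382 and 347 TPM.

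Inhibitors and receptor turnover genes gave 0 calls of 5 and 0 of 3. DKK1, a secreted inhibitor of LRP5 and LRP6 and itself a β-catenin target, had the largest difference among the 8 tested genes of these lists. The inhibitors DKK2 and DKK3 were picked with their values in view and were too low to enter the fit. Each was lower in every α-/-;βin library than in every control. Of the tested genes, which average at least 1 TPM, 11.4% were lower in this way. No such share was computed for genes as low as DKK2 and DKK3. DKK2 stood at 0.924, 0.580 and 0.105 TPM against 0, 0.0407 and 0 TPM. DKK3 stood at 1.23, 0.414 and 0.818 TPM against 0.345, 0 and 0.0396 TPM. An exact 0 may be a failed estimate, so no fold is given. DKK1 measured 218, 155 and 222 TPM in controls and 129, 104 and 142 TPM in α-/-;βin cells, without overlap (difference -0.65, interval -1.07 to -0.24, adjusted p = 0.171). SFRP1, a secreted Wnt-binding inhibitor, measured 110 ± 17.2 and 125 ± 22.6 TPM. ZNRF3, a ligase that removes Frizzleds, measured 4.43 and 5.63 TPM, and LGR4, a receptor for R-spondins, 17.2 and 18.98 TPM.

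The β-catenin machinery gave 0 calls of 31 tested genes, with a median difference of -0.00095. Of all tested genes 2.19% were called, so 0 calls in a list of this size is little different from the share over all genes. CTNNB1, encoding β-catenin, measured 190, 185 and 205 TPM in controls and 210, 178 and 191 TPM in α-/-;βin cells (difference -0.01, interval -0.22 to 0.21). CSNK1A1, the kinase that primes β-catenin for destruction, measured 322 and 321 TPM. Of 14 tested genes on the list of β-catenin targets, MYC rose and 13 did not pass, with a median of 0.01. MYC, a growth-promoting transcription factor with many inputs, measured 71.7, 76.3 and 72.1 TPM in controls and 109, 118 and 110 TPM in α-/-;βin cells (difference 0.61, SE 0.08, limma adjusted p = 0.0110). The cell cycle gene CCND1 measured 192 and 171 TPM and the surface receptor CD44 224 and 240 TPM, neither past the threshold. AXIN2, a common readout of β-catenin picked with its values in view, had a listed TPM of 0 in each control and of 0.0244, 0.0817 and 0.291 in the α-/-;βin libraries. An exact 0 may be a failed estimate, so no direction is read from it. Other targets too low for the fit were mixed. TNFRSF19 averaged 0 TPM in controls and 0.224 TPM in α-/-;βin cells, BMP4 0.541 and 0.214 TPM, and NKD1 0.0912 and 0.0903 TPM. LGR5 and NOTUM were listed at 0 in every library.

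The other 5 calls were on the lists of the β-catenin-independent branches. They made up 13.6% of the tested planar polarity genes and 11.8% of the calcium branch genes, against 2.19% of all tested genes. RAC1 and PRKCD lie in the stretches, and CELSR2, FUZ and PLCB4 did not pass with the stretch genes left out. A difference between the branches was not tested. Of 22 tested planar polarity genes, CELSR2 rose, FUZ and RAC1 fell and 19 did not pass. CELSR2, an adhesion receptor of planar polarity, measured 2.11, 2.02 and 2.28 TPM in controls and 4.84, 4.11 and 5.15 TPM in α-/-;βin cells (difference 0.86, SE 0.16, limma adjusted p = 0.0485). FUZ, a planar polarity effector needed for cilia, measured 4.78, 3.94 and 4.80 TPM in controls and 1.71, 1.29 and 1.91 TPM in α-/-;βin cells (difference -1.07, SE 0.18, adjusted p = 0.0324). Neither gene lies in a stretch, and the groups did not overlap for either.

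RAC1, a small GTPase activated downstream of WNT5A, measured 586, 557 and 603 TPM in controls and 290, 271 and 285 TPM in α-/-;βin cells (difference -1.04, SE 0.08, limma adjusted p = 0.00308). It lies in the chromosome 7 stretch, whose 196 tested genes had a median of -0.91. RHOA, a GTPase of the same branch on chromosome 3 outside the stretch, measured 486 and 457 TPM and did not pass (difference -0.09, adjusted p = 0.781).

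Of 17 tested genes of the calcium branch, PLCB4 and PRKCD fell and 15 did not pass. PRKCD, protein kinase C δ, lies in the chromosome 3 stretch and measured 32.5, 29.3 and 30.3 TPM in controls and 15.9, 12.6 and 13.1 TPM in α-/-;βin cells (difference -1.10, SE 0.12, limma adjusted p = 0.00603). PLCB4, a phospholipase C that releases calcium through IP3, measured 4.95, 7.03 and 10.4 TPM in controls and 1.23, 1.73 and 2.58 TPM in α-/-;βin cells (difference -1.55, SE 0.29, adjusted p = 0.0487). It lies on chromosome 20. Of the most abundant genes of the branch, PPP3R1, the regulatory subunit of calcineurin, measured 105 and 106 TPM and ITPR3, an IP3 receptor, 82.2 and 68.7 TPM. Among 5 tested genes tied to WNT5A signalling, RAC1 was the 1 call, and FLNA, an actin crosslinker that binds ROR2, measured 280 and 340 TPM (difference 0.28, adjusted p = 0.360).

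**Figure D4:**
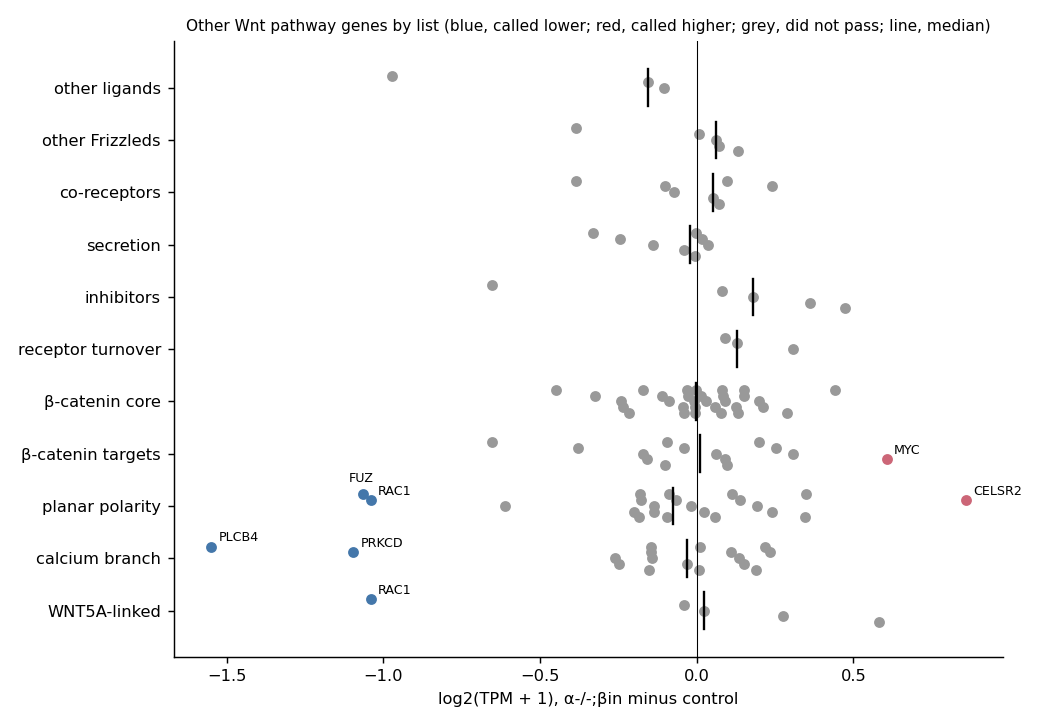
Difference on the log2(TPM + 1) scale, α-/-;βin minus control, for every tested gene of the 11 Wnt pathway lists without the 10 members; 1 point per gene and list, colour for the call, and a line at each list's median. The 6 called genes are named, and RAC1, which is on 2 lists, appears in both.

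These calls differed in how much they rested on single libraries and on the genes in the fit. RAC1 was called in all 17 of its alternative analyses and PRKCD in 16 of 17. MYC was called in 15 of 18. It was lost without control replicate 3, without α-/-;βin replicate 3 and without replicate 2 of both groups (limma adjusted p = 0.0799). CELSR2, FUZ and PLCB4 were called in 8, 7 and 7 of 17, with an adjusted p of up to 0.215, 0.162 and 0.287. Each removal of a single library took away the calls of CELSR2 and FUZ, and each but that of control replicate 1 the call of PLCB4. With the stretch genes left out of the fit, MYC was the 1 pathway call left. CELSR2, FUZ and PLCB4, which lie in no stretch, did not pass there.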

How the data were processed

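The authors deposited 1 table of TPM with 6 columns, each summing to 1000000. The submitters' processing notes name the hg19 build and DESeq2. For the aligner, the annotation and the use of strand, nothing is given in the sources used here. Columns headed Control were matched to controls by replicate number, and those headed expt to the α-/-;βin samples as the remaining group. Without strand, antisense reads cannot be told apart; ROR1-AS1 was listed at 0.0 in every library.

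Values were transformed to log2(TPM + 1), and genes averaging 1 TPM or more (12096) entered a fit with limma 3.58.1 under R 4.3.3 (empirical Bayes, trend, two-sided, Benjamini-Hochberg adjustment over all tested genes, threshold 0.05). The fit was tested on simulated data. Neighbours were taken from the RefSeq gene order of GRCh38.p14, for order only. Pathway genes were named by a rule: per list, up to 3 calls in each direction and the 2 most abundant genes. Members, lists and stretches were chosen with earlier results of these data known. Alternatives covered pseudocount, filter, scaling, model, replicate block and left-out libraries.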

Additional observations from a re-analysis of the deposited data

How the results depend on the processing

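Over all genes, 44 genes were called higher and 221 lower. With the replicate number as a block, 284 were higher and 597 lower, and without the stretch genes 14 and 31. Leaving out 1 library gave 13 to 30 higher and 91 to 189 lower calls, the fewest higher without α-/-;βin replicate 3 and the fewest lower without control replicate 3. Without replicate 2 of both groups, an analysis added after seeing the data, there were 8 and 44. Of the Wnt pathway genes, 2 were higher and 4 lower. With a filter of 5 TPM, and with no filter, it was 1 and 2, without the stretch genes 1 and 0, and with the block 8 were lower. Leaving out 1 library gave 0 to 1 higher and 2 to 3 lower, and without both replicates 2 there were 0 and 1. The cause of these changes was not tested, apart from the genes or samples removed.

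WNT5A was lower in all 17 alternatives (-1.93 to -1.53), a description of the contrast it was chosen from. It passed the threshold in 16 of them, and not without replicate 2 of both groups (limma adjusted p = 0.0629). WNT7A ranged from -0.94 to 0.35, which turns its sign, as did ROR1 (-0.13 to 0.11) and FZD2 (-0.34 to 0.06). FZD6 (0.31 to 0.45) and RYK (0.17 to 0.28) kept their sign in all 18. The labels do not say whether libraries of equal replicate number were handled together, and the main fit took no account of the number. Deviations from the group means correlated at 0.246, 0.269 and -0.015 for numbers 1 to 3. The first and second correlated best with their own number. Control 2 with α-/-;βin 1 gave -0.293, and control 1 with α-/-;βin 2 gave -0.238. Whether a batch was shared was not tested. Under the block 4 more pathway genes passed, all lower: DKK1 (limma adjusted p = 0.00304, up to 0.488 over its alternatives), SNX3 (0.0118, up to 0.388), BCL9L of the β-catenin machinery (0.0422, up to 0.710) and SOX4 of the target list (0.0446, up to 0.992).

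Uncalled genes with differences near 0 changed sign. CSNK1A1 turned to 0.013 with median-ratio scaling and 0.035 with quantile normalization, and CTNNB1 to 0.012 and 0.037. Without both replicates 2 CTNNB1 was at 0.020 and PPP3R1 at -0.021. Leaving out 1 library gave ranges of -0.018 to 0.216 for CD44, -0.036 to 0.020 for CSNK1A1, -0.068 to 0.050 for CTNNB1, -0.242 to 0.080 for MCAM, -0.031 to 0.050 for PPP3R1 and -0.304 to 0.123 for WNT3. TPM carries no read depth, so the precision of low values such as those of WNT5B, WNT10A and ROR2 cannot be given.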
